A study of Mus musculus with 9 samples.

Results

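The genes described are the uterine steroid receptors Pgr and Esr1 with the hormone target Greb1. They were chosen by name, as the rows called Pgr, Esr1 and Greb1 in the count table of each library, which gave 3 of 55228 features. All 3 rows were found in each of the 9 libraries. Pgr encodes the nuclear receptor for progesterone and Esr1 encodes oestrogen receptor alpha. Both are transcription factors that are switched on by a steroid from the ovary and are active in the epithelium, stroma and muscle of the uterus. Oestrogen acting through Esr1 is known to raise Pgr in parts of the uterus, and Greb1 is a classical oestrogen target whose protein binds steroid receptors as a cofactor.

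The study asked how the endometrium is restored when epithelial cells are placed in a damaged uterus. All 9 mice were WT C57BL females 8 weeks old, and the uterus was taken on day 7. The sham group of 3 mice had a sham operation, and the injury group of 3 mice had the lining damaged with a 27-gauge needle (10 rounds of rotation and withdrawal) and then received 50 µL of PBS. The CRC group of 3 mice had the same injury followed at once by 50 µL holding 1000000 WT CRCs, which are conditionally reprogrammed endometrial epithelial cells grown with irradiated 3T3 feeder cells.

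Total RNA depleted of ribosomal RNA was sequenced from each uterus. The counts on annotated features summed to 325384, 317754 and 327883 in the sham libraries. They summed to 290684, 280886 and 282937 in the injury libraries and to 288619, 289964 and 290833 in the CRC libraries. These totals were 0.776% to 0.898% of the records in each library, and 87.3% to 91.6% of the records lay in no feature. Levels are given as CPM, counts per 1000000 counts on features after a scaling for library composition (TMM). Whether reads were counted by strand was not stated. Each value is what the authors assigned to that row, its strand of origin is not known, and it need not be the mRNA level of that gene. Some rows held far fewer counts than a feature across their exons, as Tagln with 159 against 130075 on Gm48529. Others held more, as Csf1r with 496 against 14 on Hmgxb3, and the reason was not tested. Replicates of a group differed by more than counting noise. The chi-square per degree of freedom between 2 libraries of a group was 2.20 to 3.41 in the injury and CRC groups, and in sham it was 11.9 between replicates 1 and 2, 9.99 between replicates 1 and 3 and 4.12 between replicates 2 and 3. Sham replicates 2 and 3 differed from the other libraries in how their records were assigned. They had 28622 and 24851 ambiguous records against 1751 to 6470 in the other 7 libraries, and 3.13% and 2.52% of records not aligned against 1.36% to 1.81%. Sham replicate 1, with 2571 ambiguous records, was like the injury and CRC libraries in these measures.

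The row of Pgr held the most counts of the 3 genes, that of Esr1 was close to the limit of the counts and that of Greb1 held none. Over the 9 libraries Pgr had 619 counts, Esr1 had 24 and Greb1 had 0. A total of 38323 of the 55228 features held no count in any library. Of the 3 genes, only Pgr passed the filter on low counts, which left 3722 features for testing. Per kilobase of exon, which puts rows of unlike exon length on 1 scale, the Pgr row had 26.8 ± 5.85 CPM (SD, n = 9). The Esr1 row had 0.653 ± 0.582 CPM. With the strand of the counts not known, the order of these rows need not be the order of the RNAs. For Greb1 the 9 libraries together allowed up to 0.116 CPM per kilobase, taken as 3 counts for a count of 0. The order from Pgr to Esr1 was the same in every library, with no overlap of the 2 genes. In single libraries Esr1 per kilobase was above what a count of 0 allowed for Greb1 only in sham replicate 3 and CRC replicate 1.

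Pgr (ENSMUSG00000031870.16) lies on the plus strand of chromosome 9 at chr9:8899833-8968611 in GRCm38, with 8546 exon bases in 8 merged exons. No annotated exon of another gene crosses its exons on either strand. The Pgr counts were 67, 67 and 90 in the sham libraries, 57, 49 and 46 in the injury libraries and 90, 77 and 76 in the CRC libraries. Scaled, these were 217, 248 and 322 CPM in sham, 198, 172 and 161 CPM in injury and 274, 237 and 232 CPM in CRC. The 3 injury libraries were the lowest of the 9, and neither the sham nor the CRC libraries overlapped them. The sham and CRC libraries overlapped each other, and sham replicate 3 was the highest of all.

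The first comparison asked what the needle injury with PBS, without CRCs, left behind at day 7. Mean Pgr was 177 ± 18.7 CPM (SD, n = 3) after injury and 262 ± 53.7 CPM in sham. The log2 fold change was -0.56 (SE 0.24, 95% interval -1.05 to -0.07), and edgeR's quasi-likelihood test gave an adjusted p of 0.323 after Benjamini-Hochberg adjustment over all features tested. Pgr, the only one of the 3 genes tested this way, was thus not called at an adjusted p under 0.05, where 16 features, or 0.430% of those tested, were called. That count was 3 to 154 with 1 library left out, the highest without sham replicate 1. With 1 library left out, the log2 fold change of Pgr between injury and sham ran from -0.68 without sham replicate 1 to -0.39 without sham replicate 3, and Pgr was not called. The part of the differences between sham libraries in the Pgr values was not tested. Before adjustment edgeR gave Pgr a p of 0.0254, and 12.6% of all features tested had an unadjusted p under 0.05. Groups without overlap were found for 15.7% of the features in the same comparison. In a bulk sample, fewer cells of a type and less RNA per cell cannot be told apart.

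Between CRC and sham the Pgr levels overlapped. Mean Pgr was 248 ± 23.2 CPM (SD, n = 3) in the CRC libraries, and the log2 fold change against sham was -0.08 (SE 0.23, 95% interval -0.55 to 0.39, edgeR adjusted p = 0.848). That interval spans a fold of 0.681 to 1.31. The sign of this difference depended on the scaling and on sham replicate 3. It was 0.20 with library sizes that included the reads in no feature and 0.07 without that replicate. Of all features tested, 20.0% were called in this comparison and 35.5% had groups that did not overlap.

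The comparison of CRC with injury asked what the transplanted cells added to the same damage. Each CRC library had more Pgr than each injury library, with a log2 fold change of 0.48 (SE 0.24, 95% interval -0.01 to 0.97, edgeR adjusted p = 0.206). Pgr was not called, in a comparison where 12.9% of features were called and 33.5% had groups without overlap.

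**Figure D1:**
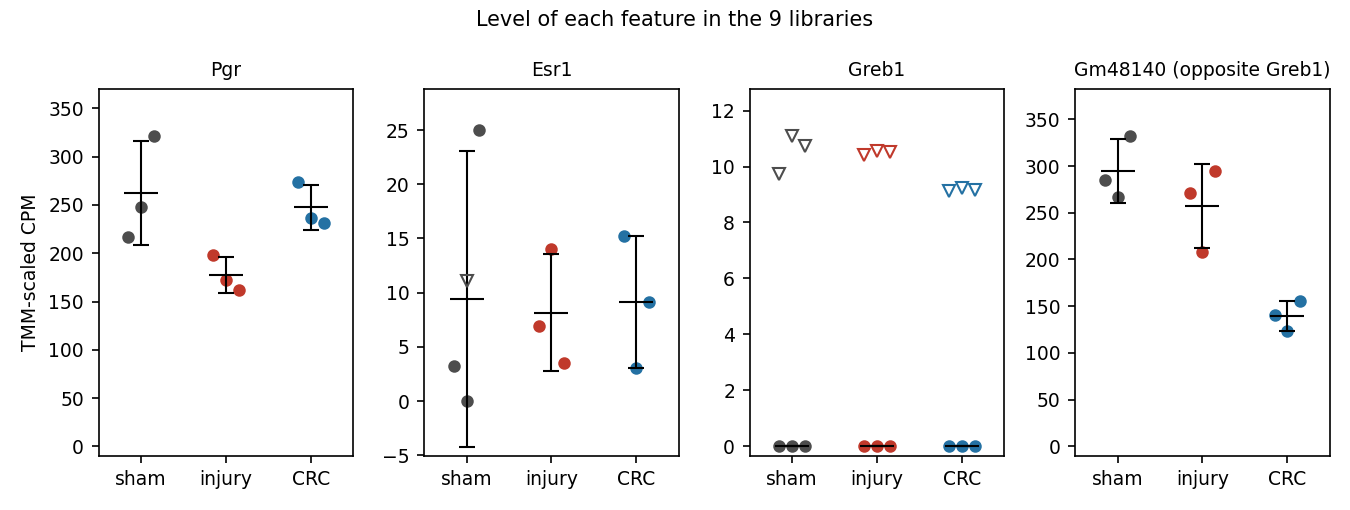
TMM-scaled CPM of Pgr, Esr1, Greb1 and Gm48140 (vertical axes, each with its own range) in the 3 libraries of each group; points are libraries, the horizontal mark is the mean with its SD, and open triangles are the level that 3 counts would give where a library had 0. The injury libraries are lowest for Pgr, between 161 and 198 CPM, and the CRC libraries are lowest for Gm48140, between 123 and 156 CPM.

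Esr1 (ENSMUSG00000019768.16) lies on the plus strand of chromosome 10 at chr10:4611593-5005614, with 13661 exon bases and no annotated exon of another gene across its exons. The Esr1 counts were 1, 0 and 7 for sham, 2, 4 and 1 for injury and 5, 1 and 3 for CRC. This equalled 3.24, 0 and 25.0 CPM in sham, 6.94, 14.1 and 3.51 CPM in injury and 15.2, 3.07 and 9.15 CPM in CRC. Each group held low and higher libraries, and all 3 groups overlapped. A count of 0 in sham replicate 2 allowed up to 11.1 CPM, and the 7 counts of sham replicate 3 had an exact Poisson 95% interval of 2.81 to 14.4 counts. Intervals and limits of this kind cover counting error only.

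Summed over the 3 libraries of a group, Esr1 held 8 counts for sham (exact Poisson 95% interval 3.45 to 15.8), 7 in injury (2.81 to 14.4) and 9 in CRC (4.12 to 17.1). Mean Esr1 was 9.42 ± 13.6 CPM (SD, n = 3) in sham, 8.17 ± 5.38 CPM in injury and 9.15 ± 6.08 CPM in CRC. The differences between groups were smaller than the spread between replicates. The exact two-sided permutation test gave p = 1 for injury against sham, p = 0.9 for CRC against sham and p = 0.8 for CRC against injury. With 3 against 3 libraries the smallest p of this test is 0.1. Over the 3 groups together the exact permutation p of Esr1 was 0.779. The same test gave 0.0321 for Pgr and 0.0179 for Gm48140, without adjustment, and 25.1% of all features tested had such a p under 0.05. The count of each group lay within the counting intervals of the others. In an edgeR fit of all 16905 features with a count the SE of its log2 fold changes was 1.23 to 1.25.

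Greb1 (ENSMUSG00000036523.16) lies on the minus strand of chromosome 12 at chr12:16670615-16800886, with 9580 exon bases in 35 merged exons. Greb1 had 0 counts in every one of the 9 libraries. A count of 0 allowed up to 9.14 to 11.1 CPM in a single library, and up to 3.50 CPM over the sham libraries, 3.50 CPM over the injury libraries and 3.06 CPM over the CRC libraries. No fold change can be given between groups that are all at 0. The microRNA feature Gm44305, which lies within Greb1, also had 0 counts.

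A second feature lies over the 3′ end of Greb1. Gm48140 (ENSMUSG00000114049.1), an antisense RNA with no known role, is annotated on the plus strand at chr12:16672240-16685013. It was the only annotated feature with exons across the exons of any of the 3 genes. Its 4 exons hold 2057 bases, of which 736 bases, or 35.8%, lie opposite exons 33, 30, 28 and 26 of the transcript Greb1-201. These bases are 7.68% of the exon bases of Greb1. Because the strand setting was not stated, it is not known whether the counts on the Gm48140 row came from Gm48140 or from Greb1. The row of Greb1 held 0 counts although most of its exon bases lie outside the overlap, and the reason was not tested. The 1321 bases of Gm48140 outside the overlap lie within the span of Greb1 too.

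**Figure D2:**
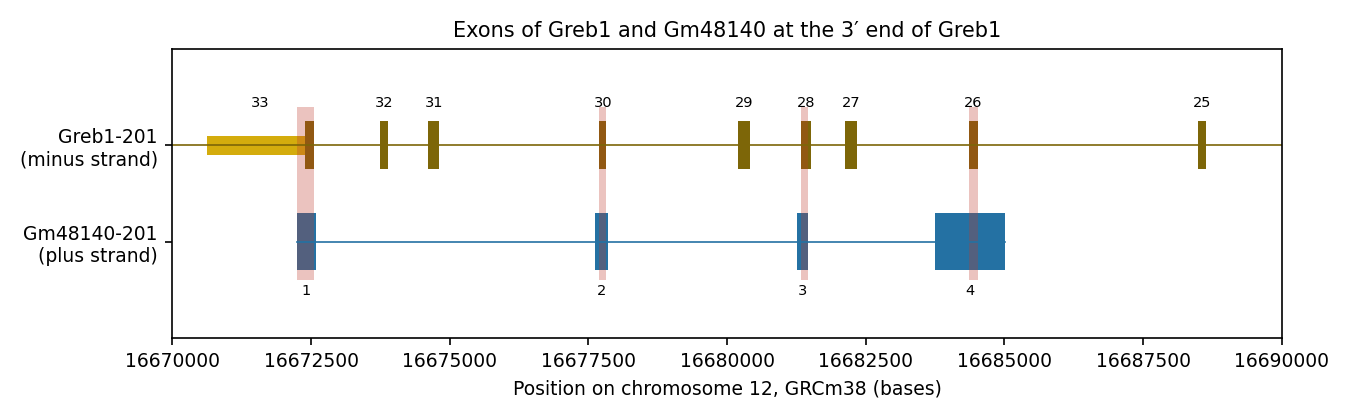
Exons of Greb1-201 (minus strand, upper row; coding parts tall, untranslated parts low) and Gm48140-201 (plus strand, lower row) against the position on chromosome 12 in GRCm38, with exon numbers and shading where exons overlap. Each of the 4 exons of Gm48140 lies across 1 exon of Greb1.

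All 4 exons of Gm48140 overlap Greb1, and exons 2 and 3 are shown as the 2 shortest. The counts are per feature, so how many reads fell on these exons is not known. Both are written in the direction of the plus strand from GENCODE coordinates in GRCm38. Capitals mark the bases opposite coding sequence of Greb1, which are 136 bases of Greb1 exon 30 at chr12:16677688-16677823 and 134 bases of Greb1 exon 28 at chr12:16681330-16681463.
Gm48140 exon 2, chr12:16677611-16677848: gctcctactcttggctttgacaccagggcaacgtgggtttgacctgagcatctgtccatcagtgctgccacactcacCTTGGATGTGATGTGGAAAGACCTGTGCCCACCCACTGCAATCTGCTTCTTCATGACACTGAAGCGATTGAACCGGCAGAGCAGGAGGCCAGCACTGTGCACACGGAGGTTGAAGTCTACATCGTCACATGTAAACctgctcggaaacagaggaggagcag
Gm48140 exon 3, chr12:16681252-16681463: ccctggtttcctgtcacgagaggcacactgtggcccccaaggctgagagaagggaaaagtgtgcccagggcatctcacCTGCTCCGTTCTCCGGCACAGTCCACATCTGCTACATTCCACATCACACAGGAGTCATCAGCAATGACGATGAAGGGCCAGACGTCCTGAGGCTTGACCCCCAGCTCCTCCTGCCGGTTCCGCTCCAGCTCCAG

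Gm48140 was counted about as often as Pgr, with 611 counts over the 9 libraries. Its counts were 88, 72 and 93 for sham, 78, 59 and 84 for injury and 46, 40 and 51 for CRC. Scaled, these were 285, 267 and 333 CPM in sham, 271, 207 and 295 CPM in injury and 140.1, 123 and 156 CPM in CRC. The 3 CRC libraries were the lowest of the 9 and overlapped neither sham nor injury, as for 35.5% and 33.5% of all features. Sham and injury overlapped each other.

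Whether the reads on the Gm48140 row came from Gm48140 or from Greb1 is not known. The row was lower in the CRC libraries. Its mean was 139.5 ± 16.3 CPM (SD, n = 3) in CRC and 295 ± 34.0 CPM in sham, a log2 fold change of -1.08 (SE 0.24, 95% interval -1.57 to -0.59, edgeR adjusted p = 0.00141). Against injury, with a mean of 258 ± 45.1 CPM, the log2 fold change of CRC was -0.88 (SE 0.24, 95% interval -1.38 to -0.39, edgeR adjusted p = 0.0120). Between injury and sham it was -0.19 (SE 0.23, 95% interval -0.66 to 0.28, edgeR adjusted p = 0.788). Of all features tested, 12.0% were called lower in CRC than in sham and 7.82% lower in CRC than in injury. The call against injury was lost with library sizes that included the reads in no feature (log2 fold change -0.69, edgeR adjusted p = 0.0605), without injury replicate 3 (-0.80, adjusted p = 0.0775) and without CRC replicate 2 (-0.80, adjusted p = 0.0717). Over its alternatives the adjusted p of that comparison was 0.00345 to 0.0775.

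The features whose log2 CPM followed Pgr most closely over the 9 libraries were 4932441J04Rik (Pearson r = 0.958), Epn2, an endocytic adaptor (0.922), Fhod1, a formin that acts on actin (0.911), Grin2d, a glutamate receptor subunit (0.910), and the noncoding Gm6277 (0.893). Those most like Gm48140 were Gm20412 (Pearson r = 0.983), Irak4, a kinase of Toll-like receptor signalling (0.970), Gm45667 (0.969), Gm10143 (0.965) and Gm17638 (0.964). Pgr and Gm48140 did not follow each other, with a Pearson r of -0.12. These values are descriptive, since the libraries share 3 groups and the features were picked from 3722. By rank correlation 3 of the 5 features stayed among the 5 nearest to Pgr, and 0 of the 5 nearest to Gm48140 did.

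Most other genes of steroid signalling were near the limit of the counts. The list of nuclear steroid receptors and relatives had 10 genes, of which 2 were tested and 0 were called in any comparison. By edgeR 0, 1 and 1 of them had an unadjusted p under 0.05 in injury against sham, CRC against sham and CRC against injury, against 12.6%, 32.1% and 24.7% of all features. Nr3c2, the mineralocorticoid receptor, was the most abundant. Its counts were 68, 31 and 36 for sham, 54, 68 and 51 for injury and 86, 80 and 80 for CRC. The CRC libraries were the highest and did not overlap sham or injury in CPM, as for 35.5% and 33.5% of all features. The log2 fold change against sham was 0.69 (edgeR adjusted p = 0.0626). Nr3c2 was called in that comparison in 3 of 18 alternatives, which were those without sham replicate 1 (adjusted p = 0.00683), with library sizes that included the reads in no feature (0.00925) and with at least 10 counts in every library (0.0279), over a range of 0.00683 to 0.226. Gper1, a membrane receptor for oestrogen, had a log2 fold change of -0.82 between CRC and injury (edgeR adjusted p = 0.182), which was -0.45 without CRC replicate 2. Nr3c1, the glucocorticoid receptor, had 12 counts over the 9 libraries, and Esr2, the other nuclear oestrogen receptor, had 1.

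Of 21 receptor chaperones and coregulators, 5 were tested, and 1 was called, higher in CRC than in sham, as were 8.03% of all features. This was Med1, a subunit of the Mediator complex that binds nuclear receptors. Its counts were 4, 2 and 13 for sham, 9, 14 and 15 for injury and 24, 26 and 41 for CRC. The CRC libraries overlapped neither group, as for 35.5% of all features against sham and 33.5% against injury. The log2 fold change against sham was 2.04 (edgeR adjusted p = 0.00490). It was 3.09 without sham replicate 3 and 1.63 without sham replicate 2, and the adjusted p over its alternatives was 0.000529 to 0.0489. The corepressor Ncor1 had 1398 counts and a log2 fold change of -0.51 between CRC and sham (edgeR adjusted p = 0.0555), with 1089 counts on Ttc19, whose exons lie across its own. The coactivator Ncoa3 (1.17 between injury and sham, edgeR adjusted p = 0.178), the chaperone Hsp90ab1 (-0.82 between CRC and sham, adjusted p = 0.216) and the transcription factor Sox17 (0.91 between CRC and injury, adjusted p = 0.201) were not called. Across their exons lie Sulf2 with 87 counts for Ncoa3 and Gm37587 with 323 for Sox17. The median log2 fold change of the 5 tested genes was -0.02 between injury and sham, 0.58 between CRC and sham and -0.47 between CRC and injury, against -0.01, 0.03 and 0.01 over all features tested. Each of these medians of 5 genes is the value of 1 gene that was not called, in turn Ncor1, Sox17 and Ncoa3.

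Of 30 genes of the progesterone response, 11 had no count, 2 were tested and 1 was called, higher in CRC than in sham, as were 8.03% of all features. Nr2f2, a nuclear receptor of the uterine stroma that acts downstream of progesterone, held 38, 42 and 40 counts in the sham libraries, 39, 48 and 47 after injury and 75, 91 and 78 with CRCs. The CRC libraries lay above all others, and such a lack of overlap was found for 35.5% of all features against sham and 33.5% against injury. Nr2f2 had a log2 fold change of 0.82 against sham (edgeR adjusted p = 0.0189). That call was lost without sham replicate 1 (adjusted p = 0.0583), sham replicate 3 (0.0563), CRC replicate 2 (0.0939) or CRC replicate 3 (0.0529), and with no filter on low counts (0.0580). The adjusted p over all its alternatives was 0.00199 to 0.0939. B130024G19Rik, with 1356 counts, has exons across those of Nr2f2. Hoxa11, a homeobox factor needed for stromal function, lies across Hoxa11os with its 6450 counts. It had a log2 fold change of -0.15 between CRC and sham (edgeR adjusted p = 0.889), and this became 0.97 without sham replicate 3, 0.25 without CRC replicate 2 and 0.13 with library sizes that included the reads in no feature. The epithelial progesterone target Ihh had 6 counts and Areg had 0.

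Of 32 genes of the oestrogen response, 11 had no count, 2 were tested and 1 was called, lower in CRC than in sham and in injury, as were 12.0% and 7.82% of all features. Padi2, an enzyme that converts arginine to citrulline in proteins, held 12, 9 and 18 counts in the sham libraries, 9, 10 and 14 after injury and 4, 4 and 1 with CRCs. The CRC libraries were the lowest and overlapped neither sham nor injury, as for 35.5% and 33.5% of all features. Padi2 fell by 2.26 on the log2 scale against sham (edgeR adjusted p = 0.0168) and by 2.02 against injury (adjusted p = 0.0493). Without CRC replicate 3 these adjusted p were 0.0779 and 0.178, and without sham replicate 3 they were 0.0928 and 0.0661. Over the alternatives they were 0.00738 to 0.0928 and 0.0231 to 0.180. The call against sham held in 13 of 16 alternatives and the call against injury in 5 of 16, and the latter was also lost when any 1 of the injury or CRC libraries was left out. Ccnd1, the cell cycle regulator cyclin D1, had 851 counts and a log2 fold change of 0.05 between CRC and sham (edgeR adjusted p = 0.900), with 3058 counts on LTO1, whose exons lie across its own. The secreted oestrogen target Ltf had 2 counts.

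Of 16 genes of sex steroid metabolism, 15 were rows of the count tables, 10 had no count and 1 was tested. Star, which carries cholesterol into mitochondria as the start of steroid synthesis, held 141, 126 and 115 counts in the sham libraries, 114, 101 and 109 after injury and 175, 203 and 152 with CRCs. The CRC libraries did not overlap the injury libraries, as for 33.5% of all features, and the log2 fold change was 0.52 (edgeR adjusted p = 0.0608). The aromatase gene Cyp19a1 and the side-chain cleavage enzyme Cyp11a1 had 0 counts.

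**Figure D3:**
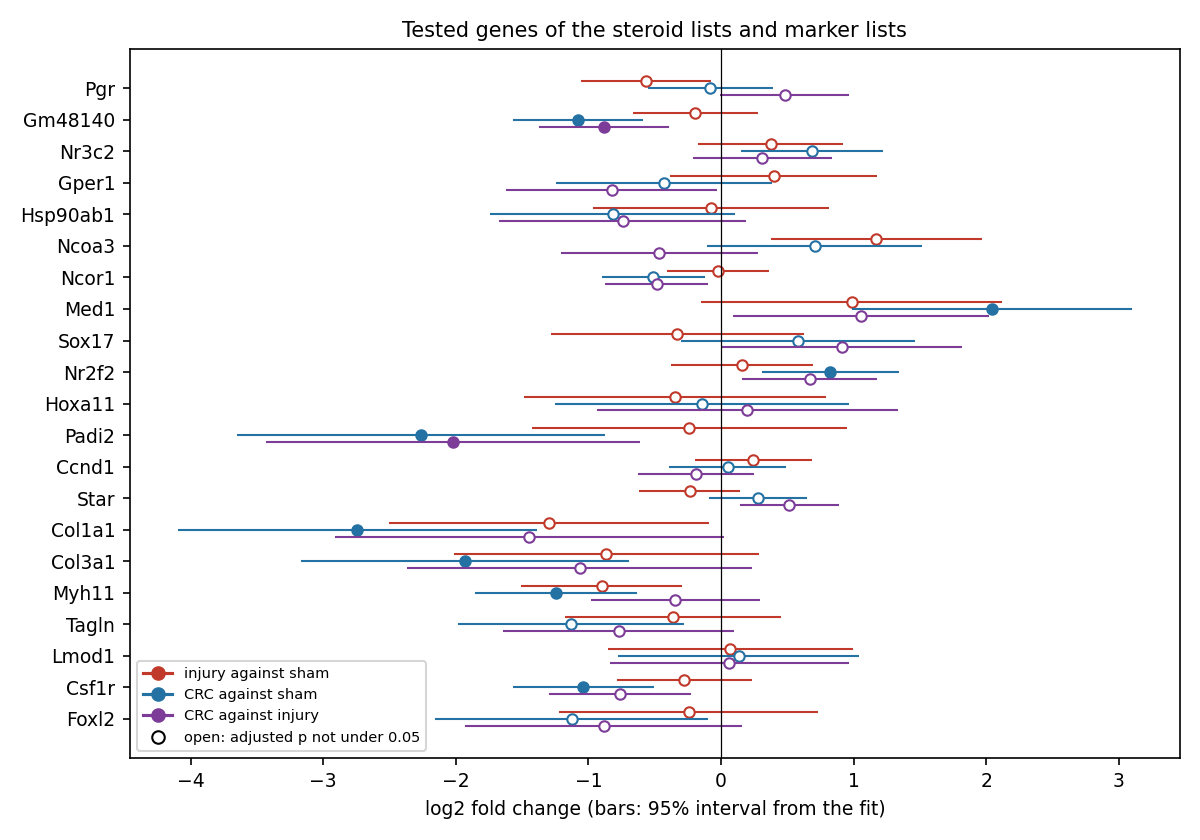
Log2 fold change (horizontal axis) of Pgr, Gm48140 and each tested gene of the steroid and cell type lists in the 3 comparisons, with 95% intervals from the edgeR fit; filled points had an adjusted p under 0.05. Pgr has no filled point, with log2 fold changes of -0.56, -0.08 and 0.48, and Gm48140 has filled points for CRC against sham and CRC against injury.

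Rows of markers of the cell types in which the receptors act also held few counts. With the strand of the counts not known, these rows need not follow the amount of each cell type. The 10 epithelial markers summed to 7, 8 and 2 counts in the sham libraries, 0, 1 and 2 after injury and 0, 0 and 1 with CRCs. The most abundant, the adhesion protein Epcam, had 9 counts, and Cdh1, Foxa2, Spink1, Prss28 and Wfdc2 had 0, so the epithelium could not be followed. The 9 stromal markers summed to 162, 218 and 325 CPM in sham, 142, 165 and 137 CPM in injury and 137, 101 and 131 CPM in CRC. All sham libraries but sham replicate 1 were above every injury and CRC library. Hoxa11 was the most abundant stromal marker, and Dcn and Lum had 4 counts each over the 9 libraries. Of 3 stromal markers tested, the collagen genes Col1a1 and Col3a1 were called lower in CRC than in sham, by log2 fold changes of -2.74 (edgeR adjusted p = 0.00323) and -1.93 (adjusted p = 0.0219), and 12.0% of all features were called lower. Hoxa11, at -0.15, was not called, and the other 6 stromal markers had too few counts for the test. Col1a1 lost that call without sham replicate 3 (adjusted p = 0.0561), and Col3a1 without sham replicate 2 (0.125), CRC replicate 2 (0.0770) or CRC replicate 3 (0.0731) and with no filter on low counts (0.0898). Their adjusted p over all alternatives were 0.000669 to 0.0561 and 0.00886 to 0.125.

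The 8 smooth muscle markers summed to 399, 559 and 490 CPM in sham, 291, 334 and 316 CPM in injury and 241, 234 and 311 CPM in CRC. Each sham library was above each injury and CRC library, and the least counted muscle marker, Actg2, had 1 count over the 9 libraries. Such a lack of overlap with sham was found for 15.7% of all features in injury and 35.5% in CRC. Of 3 muscle markers tested 1 was called, Myh11, the myosin heavy chain of smooth muscle and the most abundant of them. It was lower in CRC than in sham (log2 fold change -1.25, edgeR adjusted p = 0.00299), as were 12.0% of all features. The actin-binding protein Tagln, with 130075 counts on Gm48529 across its exons, had a log2 fold change of -1.13 (edgeR adjusted p = 0.0528), and the muscle actin regulator Lmod1 had 0.13 (adjusted p = 0.872). Of these 3 genes only Myh11, with 459 counts, separated sham from both other groups as the sum did. Tagln overlapped sham in injury, and Lmod1 overlapped sham in both injury and CRC. The share of muscle or stroma in the Pgr values was not tested.

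The 6 immune markers summed to 214, 233 and 282 CPM in sham, 219, 172 and 218 CPM in injury and 137, 111 and 107 CPM in CRC. The CRC libraries were lowest and overlapped neither sham nor injury, as for 35.5% and 33.5% of all features. Nearly all of it was Csf1r, the macrophage growth factor receptor and the only 1 of the 6 tested, while Ptprc, Adgre1, Cd3e and Lyz2 had 0 counts. Csf1r was called lower in CRC than in sham (log2 fold change -1.04, edgeR adjusted p = 0.00431), as were 12.0% of all features, and was not called against injury (-0.76, adjusted p = 0.0517). The part of these markers in the Gm48140 result was not tested. Among the other lists, the most abundant were Pecam1 (endothelium list) with 26 counts, Mki67 (proliferating cells) with 64, Pax8 (oviduct list) with 6 and Foxl2 (ovary list) with 109. No other gene of the ovary list had more than 1 count over the 9 libraries. Foxl2 was not called (CRC against sham -1.13, edgeR adjusted p = 0.114), with 279 counts on Foxl2os across its exons, and the haemoglobin genes had 0 counts.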

How the data were processed

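RNA from 9 mouse uteri was measured, 3 per group. The authors aligned paired reads of 150 bases with HISAT2 2.1.0 to the mouse genome and deposited raw read counts per feature; StringTie 2.1.1 is also named in the submitters' processing notes, and no source gives the strand used in counting. The 5 rows that name no feature held 99.2% of the records and were left out of library sizes and tests. The members and lists were chosen with earlier results of these data known.

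The tests used edgeR 4.0.16 under R 4.3.3 (filterByExpr, TMM, robust quasi-likelihood fit of all 9 libraries, no covariate). Calls are at a Benjamini-Hochberg adjusted p under 0.05 over 3722 features. Library sizes were the sums over all features; this was settled after counts of calls with both forms had been seen, and sizes recomputed after the filter are given as an alternative. Intervals of log2 fold changes are the estimate with its SE and the t quantile of the fit. Members under the filter were compared by exact permutation of libraries with Python 3.11.15 and scipy 1.17.1. The other alternatives were DESeq2 1.42.0 size factors and its Wald test, upper quartile scaling, library sizes with the reads in no feature, no filter, at least 10 counts in every library, the 2 groups alone, a replicate block and leaving out each library. The code was tested on simulated data.

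Positions came from GENCODE M21 on GRCm38, in which 53569 features matched by name; the study names release 23, which was not used here. Named genes were Pgr, Esr1 and Greb1, features within their spans with at least 10 counts, list genes called in a comparison or with at least 100 counts, the 5 features most similar to each member, and markers with at least 100 counts or most abundant for their type. Genes outside the rule (Nr3c1, Esr2, Ihh, Areg, Ltf, Cyp19a1, Cyp11a1, Gm44305, Dcn, Lum, Actg2 and markers at 0) were named after their values were seen. Some features across the exons of list genes were named too.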

Additional observations from a re-analysis of the deposited data

How the results depend on the processing

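Pgr was called in 0 of 18 alternatives in each comparison. Its log2 fold change between CRC and sham turned to 0.20 with library sizes that included the reads in no feature, and was -0.22 to 0.0674 with 1 library left out; that scaling moved the median of all features to 0.31 from 0.03, and between CRC and injury to 0.20 from 0.01. Leaving out 1 library gave Pgr -0.68 to -0.39 between injury and sham and 0.40 to 0.55 between CRC and injury. Gm48140 was called lower in CRC than in sham in 18 of 18 alternatives, and in 15 of 18 against injury, where that scaling gave -0.69 and leaving out 1 library gave -1.03 to -0.80. With the opposite feature added, the mean level at Greb1 was 231 CPM in place of 0; Pgr and Esr1 have no such feature. No comparison of Greb1 between groups could be computed under the scaling, filter, tool or left-out libraries. The Esr1 differences in mean CPM changed sign with 1 library left out, from -5.97 to 6.55 between injury and sham, -4.99 to 7.53 between CRC and sham and -2.06 to 4.02 between CRC and injury, all moves of less than 1 SD between replicates.

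The number of calls between injury and sham, 16, became 5 with a replicate block, 6 with the 2 groups alone and 3 to 154 with 1 library left out, the 154 without sham replicate 1; the count was 3 without sham replicate 3 or injury replicate 2, 4 without injury replicate 3, 8 without injury replicate 1 and 10 without CRC replicate 3. Deviations of libraries with the same number correlated at -0.10 to 0.08, so the numbers were not taken to pair the mice, and the replicate block called no member. Of features called between CRC and sham, 299 were higher and 447 lower, against 620 and 283 with the reads in no feature; between CRC and injury these were 190 and 291, against 331 and 191. Between injury and sham they were 10 and 6, against 14 and 3. The cause was not tested. Library sizes recomputed after the filter, added after the data were seen, called 745 features in place of 746 between CRC and sham, and left Pgr at -0.56, -0.08 and 0.48.

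Among 19 list and marker genes, 911 values kept direction and side of the threshold, 24 lost a call, 23 gained one (Nr3c2, Ncor1, Med1, Sox17, Nr2f2, Star, Myh11, Tagln and Csf1r) and 23 changed sign. With reads in no feature, the sign changed for Hsp90ab1 (0.00448) and Ncor1 (0.0537) between injury and sham, Hoxa11 (0.13) between CRC and sham and Ccnd1 (0.00420) between CRC and injury. Ncor1 between injury and sham was also 0.0191 with upper quartile scaling and 0.0394 with no filter. With 1 library left out, between injury and sham Hsp90ab1 was -0.21 to 0.22, Ncor1 -0.21 to 0.11, Hoxa11 -0.77 to 0.79, Padi2 -0.45 to 0.0866, Lmod1 -0.0219 to 0.16 and Foxl2 -0.43 to 0.0666. Between CRC and sham Hoxa11 was -0.59 to 0.97, Ccnd1 -0.0831 to 0.23 and Lmod1 -0.0357 to 0.32, and between CRC and injury Hoxa11 was -0.16 to 0.57 and Lmod1 -0.12 to 0.24. The cause was not tested.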
